A study of Mus musculus with 6 samples.

Results

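The genes followed here were 7 members of the epithelial adherens junction, compared across mouse esophageal and stomach organoids. They were the cadherin genes *Cdh1*, *Cdh3* and *Cdh17*, the catenin genes *Ctnnb1*, *Ctnnd1* and *Ctnna1*, and *Epcam*. Members were chosen by gene name, and every non-control probe that the array files assign to them was kept, which gave 10 of 55681 probes for 7 of 34298 gene names. RNA was read on 6 single-color Agilent arrays, 3 of esophageal and 3 of stomach organoids, and each tissue was cultured from mice 1, 2 and 4. Organoids are self-organizing epithelial cultures grown in a gel from tissue stem cells. All 6 cultures were controls at passage 0 and were harvested on day 8, except the stomach organoids of mouse 4, harvested on day 7. Strain, sex and age of these 3 mice are not given in the labels. Stomach organoids came from corpus glands and esophageal organoids from dissociated tissue. Both media held EGF, noggin, FGF-10, N-acetylcysteine, nicotinamide, a TGF-β receptor kinase inhibitor and a ROCK inhibitor. Stomach medium also held WNT3A and R-spondin1 conditioned media and gastrin, while esophageal medium held forskolin. These media are those of the culture protocol in the methods. The sample titles name no medium, and the paper also grew mouse esophageal organoids with WNT3A and R-spondin1. Under the protocol, tissue, isolation and medium changed together and cannot be told apart. The esophageal array of mouse 4 was the only array on its slide, and the other 5 shared a slide.

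The adherens junction joins the actin belts of neighboring epithelial cells. The extracellular domains of classical cadherins on 2 cells bind each other in the presence of calcium. Inside the cell, β-catenin binds the far end of the cadherin tail, p120-catenin binds the part of the tail next to the membrane and slows the removal of the cadherin from the surface, and α-catenin couples the complex to actin. β-catenin that is not held at the membrane is also the transcriptional effector of canonical Wnt signaling. EpCAM is an epithelial adhesion glycoprotein outside the cadherin family that associates with claudin-7.

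Of the 10 probes, 1 was called higher in the esophagus (*Cdh3*) and 1 was called higher in the stomach (a *Ctnnd1* probe), at a limma adjusted p under 0.05 over all probes. The share called was 12.2% over all probes, 5.94% toward the esophagus and 6.22% toward the stomach, and 25.1% among probes measured in at least 1 tissue. A spot is well above background where the scanner software says so, a probe is where at least 50% of its spots are, and a probe counts as measured in a tissue where this held on its 3 arrays. Of the 10 probes, 7 were well above background on all 6 arrays, and both *Cdh17* probes and 1 *Ctnnd1* probe were not. The values of the tissues did not overlap for 4 of the 10 probes, against 28.6% of all probes. These were the probes of *Cdh1*, *Cdh3* and *Epcam* and the called *Ctnnd1* probe. All 4 were among the 7 well above background on all arrays, against a share of 40.1% over all such probes. The same 4 probes passed an unadjusted p under 0.05 with a 1.5-fold change, the thresholds named in the methods, which 18.1% of all probes passed. The median log2 difference, esophagus minus stomach, was -0.25 over the 10 probes and -0.46 over the 7 well above background, against 0.02 and 0.10 for the corresponding sets of all probes.

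**Figure D1:**
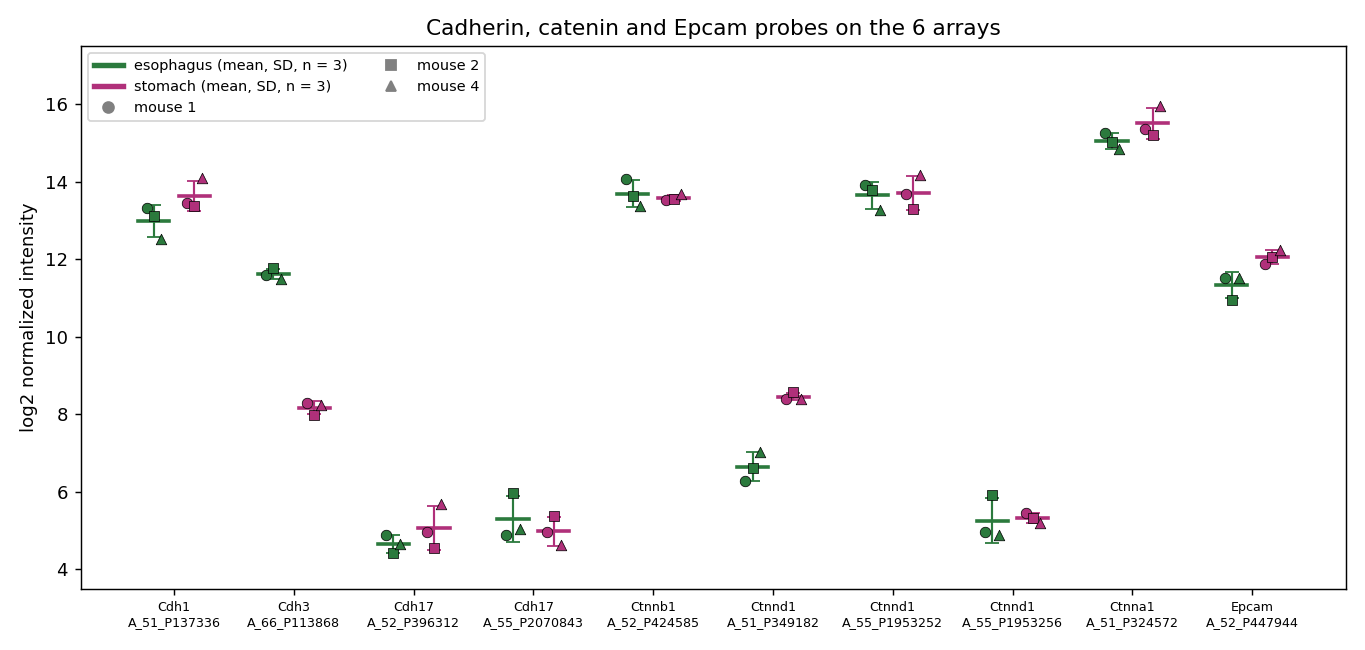
Log2 normalized intensity (vertical axis) of the 10 probes on the 6 arrays, with each point an array, its shape the mouse, and bars the mean and SD of 3 arrays per tissue. *Cdh3* lies at 11.50 to 11.76 in the esophagus and 7.99 to 8.29 in the stomach, and both *Cdh17* probes lie below 6 on every array.

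The tissue labels were checked against marker lists. Of 7 squamous markers, 6 were higher in the esophagus, and the brightest of 4 *Trp63* probes was higher in the stomach. All 10 columnar markers were higher in the stomach. Of 11 fibroblast and smooth muscle markers, 0 to 2 were well above background on an array, 6 including *Vim* and *Pdgfra* were so on none, and their summed level was 309.6 to 412.6 in the esophagus and 349.8 to 354.8 in the stomach on the linear scale. None of these 11 was called. Of 8 endothelial and immune markers, 5 or 6 were well above background on each array. *Pecam1*, *Kdr*, *Cd68*, *Cd3e* and *Csf1r* were so on all 6 arrays, and *Cdh5* and *Ptprc* on none. None of the 8 was called, with summed levels of 4524 to 29155 in the esophagus and 3086 to 6404 in the stomach, most of it *Cd68* in the highest array. A lower value in these bulk samples can mean fewer cells of a type or less RNA per cell, and the arrays do not separate them.

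*Cdh3* encodes P-cadherin, a classical cadherin known from the basal layer of stratified epithelia. Its probe (A_66_P113868, NM_001037809, mm9 chromosome 8, 109079933 to 109079992) read 11.58, 11.76 and 11.50 in the esophageal organoids of mice 1, 2 and 4, and 8.29, 7.99 and 8.23 in the stomach organoids of the same mice. Every esophageal array lay above every stomach array by more than 3 log2 units. The means were 11.61 ± 0.13 and 8.17 ± 0.16 (SD, n = 3 each). The difference was 3.44 on the log2 scale (SE 0.16, 95% confidence interval 3.08 to 3.80), or 10.9-fold higher in the esophagus (8.45-fold to 14.0-fold), with a limma adjusted p of 5.72e-06. Within mice the difference was 3.29, 3.77 and 3.27. The probe was well above background on the 3 stomach arrays too, so the transcript was measured in both tissues.

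*Cdh1* encodes E-cadherin, the main cadherin of epithelial adherens junctions. Its probe lies 113819 bases downstream of the *Cdh3* probe on the same strand (A_51_P137336, NM_009864, mm9 chromosome 8, 109193812 to 109193871). It read 13.33, 13.11 and 12.53 in the esophagus and 13.45, 13.38 and 14.09 in the stomach. The lowest stomach array was above the highest esophageal array, by less than the SD within either tissue. The means were 12.99 ± 0.42 and 13.64 ± 0.39 (SD, n = 3 each), and the difference was -0.65 (SE 0.27, 95% confidence interval -1.28 to -0.02), with a limma unadjusted p of 0.0453 and an adjusted p of 0.197. The gene was therefore not called, and its interval allows the stomach level to lie from 1.01-fold to 2.42-fold above the esophageal level. The probe is spotted 10 times on each array, and the SD between these spots was 0.145 to 0.190, so the spread between arrays of a tissue was the larger. Most of the difference came from mouse 4, where it was -1.56, against -0.12 in mouse 1 and -0.26 in mouse 2. Leaving out each of the 6 arrays in turn gave differences of -0.82 to -0.42 and limma adjusted p-values of 0.131 to 0.401, so the gene was called in none of these fits. With scaling to the 75th percentile the difference was -0.38.

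The 2 neighboring cadherin genes thus gave differences of opposite sign in these organoids, 3.44 for *Cdh3* and -0.65 for *Cdh1*, of which the first was called.

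*Cdh17* encodes LI-cadherin, an atypical cadherin of the intestinal epithelium with a short cytoplasmic tail. Its probes were at background. Probe A_52_P396312 (NM_019753, mm9 chromosome 4, 11744272 to 11744331) read 4.88, 4.42 and 4.65 in the esophagus and 4.95, 4.56 and 5.68 in the stomach, and was well above background on 1 array, the stomach array of mouse 4. Probe A_55_P2070843 (ENSMUST00000108303.1, mm9 chromosome 4, 11738574 to 11738633) read 4.88, 5.96 and 5.03 in the esophagus and 4.95, 5.36 and 4.63 in the stomach, and was well above background on 1 array, the esophageal array of mouse 2. The tissues overlapped at both probes, whose differences were -0.41 (adjusted p = 0.463, limma) and 0.31 (adjusted p = 0.642, limma). No fold is given, since neither tissue was measured above background on more than 1 array. Other intestinal genes gave mixed readings in the stomach organoids. Of 9 listed, *Vil1*, *Lgals4*, *Krt20* and *Cdx2* were higher in the stomach, and *Cdx1* and *Sis* were not well above background on any array. *Muc2* (-0.43), *Fabp2* (1.90, limma adjusted p = 0.112) and *Alpi*, which was well above background on 1 stomach array alone, were not called, and *Fabp2* alone of the 9 read higher on every esophageal array than on any stomach array.

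**Figure D2:**
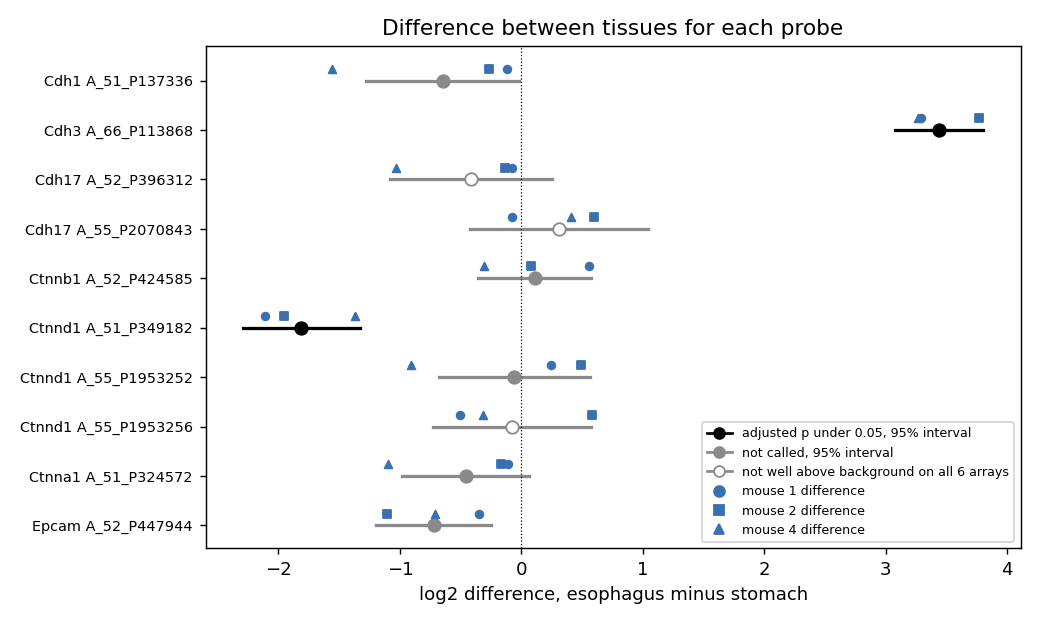
Log2 difference, esophagus minus stomach (horizontal axis), of each probe with its 95% confidence interval and, in blue, the differences within the 3 mice. The intervals of *Cdh3* (3.08 to 3.80) and of *Ctnnd1* probe A_51_P349182 (-2.29 to -1.33) lie farthest from 0, and mouse 4 gives the lowest value for *Cdh1* and *Ctnna1*.

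*Ctnnb1* encodes β-catenin. Its probe (A_52_P424585, NM_007614, mm9 chromosome 9, 120869274 to 120869333) read 14.07, 13.64 and 13.37 in the esophagus and 13.52, 13.56 and 13.67 in the stomach. The stomach arrays lay inside the esophageal range. The difference was 0.11 (SE 0.20, 95% confidence interval -0.36 to 0.57, limma adjusted p = 0.82), and within mice it was 0.56, 0.08 and -0.31. The interval leaves room for a change of up to 1.49-fold in favor of the esophagus and 1.28-fold in favor of the stomach. This is RNA abundance in cultures that, under the protocol, differed in added WNT3A and R-spondin1. The stability or location of the protein was not measured.

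*Ctnna1* encodes αE-catenin. Its probe (A_51_P324572, NM_009818, mm9 chromosome 18, 35414129 to 35414188) read 15.26, 15.03 and 14.84 in the esophagus and 15.36, 15.20 and 15.94 in the stomach. The tissues overlapped, since the stomach array of mouse 2 was below the esophageal array of mouse 1. The difference was -0.46 (SE 0.23, 95% confidence interval -0.98 to 0.07) and was not called (limma adjusted p = 0.277). It was -0.10 with scaling to the 75th percentile and -0.24 without the stomach array of mouse 4. As for *Cdh1*, mouse 4 carried most of it, with -1.10 against -0.11 in mouse 1 and -0.17 in mouse 2.

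*Ctnnd1*, which encodes p120-catenin, was read by 3 probes, and they did not give the same result. The probe that differed is shown because it is the gene's only called probe. It lies on the minus strand of mm9 at chr2:84443345-84443404, reads from position 3157 of its listed transcript (ENSMUST00000111684.7), and is printed from 5′ to 3′ as the array file gives it, entirely in lower case.

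Ctnnd1 A_51_P349182: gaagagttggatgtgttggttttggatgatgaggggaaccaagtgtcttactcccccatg

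This probe read 6.28, 6.62 and 7.03 in the esophagus and 8.40, 8.57 and 8.40 in the stomach, and it was well above background on all 6 arrays. Every stomach array was above every esophageal array. The means were 6.64 ± 0.38 and 8.46 ± 0.10 (SD, n = 3 each), and the difference was -1.81 (SE 0.21, 95% confidence interval -2.29 to -1.33), or 3.51-fold higher in the stomach, with a limma adjusted p of 0.000961. Within mice it was -2.11, -1.95 and -1.37.

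A second *Ctnnd1* probe, A_55_P1953252, lies 2286 bases farther along the gene in the direction of transcription (NM_007615, position 5354, mm9 chromosome 2, 84440999 to 84441058). It read 13.92, 13.79 and 13.26 in the esophagus and 13.67, 13.29 and 14.17 in the stomach. The tissues overlapped, and the difference was -0.06 (95% confidence interval -0.68 to 0.57, limma adjusted p = 0.934). The third probe, A_55_P1953256, lies 5652 bases before the first (ENSMUST00000145312.7, mm9 chromosome 2, 84449057 to 84449116). It was well above background on 1 array of each tissue, read 4.95, 5.92 and 4.88 against 5.46, 5.33 and 5.19, and gave a difference of -0.08 (limma adjusted p = 0.911).

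The upstream probe minus the downstream probe was -7.64, -7.17 and -6.22 in the esophagus and -5.28, -4.72 and -5.77 in the stomach on the log2 scale. The gap between the probes was wider on every esophageal array than on any stomach array, and its mean differed by -1.75. This restates the called and the uncalled difference above and is given as a description, with no test. A disagreement of at least this size between probes of a gene was found in 85 of 4126 genes with at least 2 probes well above background on all arrays (2.06%), where the median was 0.258. None of the 10 probes shared a run of 20 bases with an array probe outside the 10. Runs shared among the 10 themselves were not part of this count. Averaged over its 3 probes, *Ctnnd1* differed by -0.65 (limma adjusted p = 0.031). This average counts the called probe equally with the uncalled A_55_P1953252 and with A_55_P1953256, which was measured in neither tissue.

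**Figure D3:**
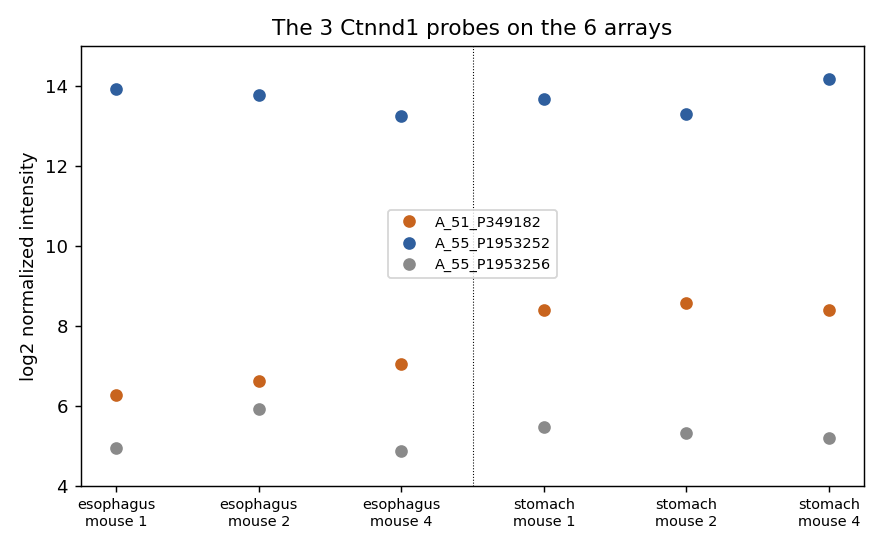
Log2 normalized intensity (vertical axis) of the 3 *Ctnnd1* probes on each of the 6 arrays (horizontal axis), with each point an array. A_51_P349182 lies at 6.28 to 7.03 in the esophagus and 8.40 to 8.57 in the stomach, while the ranges of the other probes overlap between tissues.

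*Epcam* was read by a probe whose mm9 span, chr17:88048972-88049800, is longer than the probe itself (829 bases against 60), so that the probe joins sequence from more than 1 exon and reads spliced RNA. It is printed on the plus strand from 5′ to 3′, entirely in lower case.

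Epcam A_52_P447944: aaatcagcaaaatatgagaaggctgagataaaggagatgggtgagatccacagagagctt

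The probe (NM_008532) read 11.52, 10.94 and 11.52 in the esophagus and 11.86, 12.05 and 12.23 in the stomach. Every stomach array was above every esophageal array. The means were 11.33 ± 0.33 and 12.05 ± 0.18 (SD, n = 3 each), and the difference was -0.72 (SE 0.20, 95% confidence interval -1.20 to -0.25), which is 1.65-fold higher in the stomach. Within mice it was -0.35, -1.11 and -0.71. The limma adjusted p was 0.0623, just above the threshold, and of the 3 alternatives that rebuilt the values from scanner intensities, 1 called the gene. The adjusted p was 0.0452 with normexp at offset 16, 0.0522 at offset 50 and 0.472 with scaling to the 75th percentile, where the difference was -0.51.

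The probes of *Cdh1*, *Ctnna1* and *Ctnnd1* A_55_P1953252, 3 of the 7 that were well above background, each read highest on the stomach array of mouse 4 and lowest on the esophageal array of mouse 4. The same held for 717 of 21382 probes (3.35%). These arrays also differed from the others in harvest day (stomach) and slide (esophagus), and the part of either in these values was not tested.

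The rest of the pathway was taken from 6 lists of 80 genes, each read by its brightest probe. Of the 80, 13 were higher in the esophagus, 16 were higher in the stomach and 51 were not called, while 53 were measured in a tissue. Over all gene names, 14.9% were called (7.15% toward the esophagus and 7.7% toward the stomach), and 26.6% of those measured in a tissue. The median difference of the 80 was 0.02, against 0.03 for all genes. With scaling to the 75th percentile of the software's signal, the split was 14 toward the esophagus and 8 toward the stomach, and without the stomach array of mouse 1 it was 9 and 9. Of the 29 called genes, 16 were called under each of 13 alternatives, and none of the 29 changed sign. The other 13 lost the call under at least 1 of them, and this is marked where they are named. Besides the 2 genes with the widest difference in each direction of each list, other called genes are named below after their values were seen.

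Nectins are immunoglobulin-type adhesion molecules that meet across the cell border and are tied to actin by afadin. All 7 genes of this list were measured in a tissue, with a median difference of -0.18. *Nectin1* read 14.31, 14.60 and 14.18 in the esophagus and 9.69, 10.05 and 10.23 in the stomach, a difference of 4.38 (limma adjusted p = 5.23e-06). *Nectin4* was also higher in the esophagus, by 2.14 (limma adjusted p = 0.025). This call was lost with normexp at offset 50 (limma adjusted p = 0.0677). It was also lost without any 1 of 5 arrays (limma adjusted p of 0.0547 to 0.0854) and kept without the esophageal array of mouse 4. *Nectin3* read 5.26, 4.91 and 5.21 in the esophagus, where it was not well above background, and 7.51, 7.55 and 8.11 in the stomach, at least 5.75-fold higher (limma adjusted p = 0.000125). Such a bound sets the mean of the higher tissue against a mean for the lower tissue. In the latter, each array counts with the probe's own value or with its dimmest signal still well above background, whichever was higher. The bound allows for dim signal and not for the spread between arrays, so a confidence interval can start lower. That of *Nectin3* started at 4.34-fold. *Nectin2* was higher in the stomach, with a difference of -2.03 (limma adjusted p = 0.00409), as was *Pvr* (-1.02), a nectin-binding relative, whose limma adjusted p of 0.0267 became 0.0707 with the mouse as a block and 0.119 at the 75th percentile, and which was not called without 4 of the arrays in turn (0.0501 to 0.0687). *Afdn*, which encodes afadin, and *Plekha7*, which links p120-catenin to microtubules, differed by -0.18 and -0.17 and were not called. Members of the nectin family were thus called in both directions.

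Relatives of the catenins and proteins that tie them to actin made up 20 genes, of which 4 were higher in the esophagus, 4 were higher in the stomach and 12 were not called (median difference 0.05). *Ajuba*, a LIM protein that binds α-catenin, was higher in the esophagus by 1.65 (limma adjusted p = 0.00153). *Jup*, which encodes plakoglobin, a β-catenin relative shared with desmosomes, was higher there by 1.503 (limma adjusted p = 0.00933). *Enah* (1.44), a regulator of actin filament growth, and *Ctnnbip1* (1.05), an inhibitor of β-catenin's binding to TCF factors, were the others, the latter not called without the stomach array of mouse 1 or 2. *Camsap3*, which anchors microtubule minus ends at junctions, read 10.83, 11.14 and 10.14 in the esophagus and 12.89, 12.89 and 12.48 in the stomach, a difference of -2.05 (limma adjusted p = 0.00194). *Pkp4*, a p120-catenin relative, differed by -1.08 (limma adjusted p = 0.0126), and *Lima1* (-0.93) and *Wtip* (-0.72) were also higher in the stomach. Of these 4, *Camsap3* alone was called at the 75th percentile. *Pkp4* was also lost without the stomach array of mouse 1, and *Wtip* with the mouse as a block (limma adjusted p = 0.0542) or without 4 of the arrays in turn (0.0998 to 0.152).

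Of 25 other cadherin genes, 13 were not well above background on any array, 2 were higher in the esophagus and 3 were lower there (median difference 0.03). *Cdhr2*, a protocadherin of the microvillar brush border, read 8.30, 8.51 and 7.58 in the esophagus and 12.17, 12.28 and 12.58 in the stomach, a difference of -4.21 (limma adjusted p = 3e-05). *Cdhr5*, its partner in the brush border, was not well above background in the esophagus. By the bound described for *Nectin3* its stomach level was at least 3.80-fold higher (limma adjusted p = 0.00136), with a confidence interval from 3.08-fold. *Cdh13*, a membrane-anchored cadherin without a cytoplasmic tail, differed by -1.61 (limma adjusted p = 0.0287). It was not called at the 75th percentile (0.0969), with normexp at offset 50 (0.0668) or without 4 of the arrays in turn (0.0706 to 0.122). *Cdhr1* was well above background on the 3 esophageal arrays alone. Its level there was at least 6.64-fold higher by the same bound (limma adjusted p = 0.000973), with a confidence interval from 4.07-fold. *Cdh4* was called higher in the esophagus (limma adjusted p = 0.0114), but not without the stomach array of mouse 1 or 2. It was well above background on only 1 stomach array, so no size is given for its difference.

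**Figure D4:**
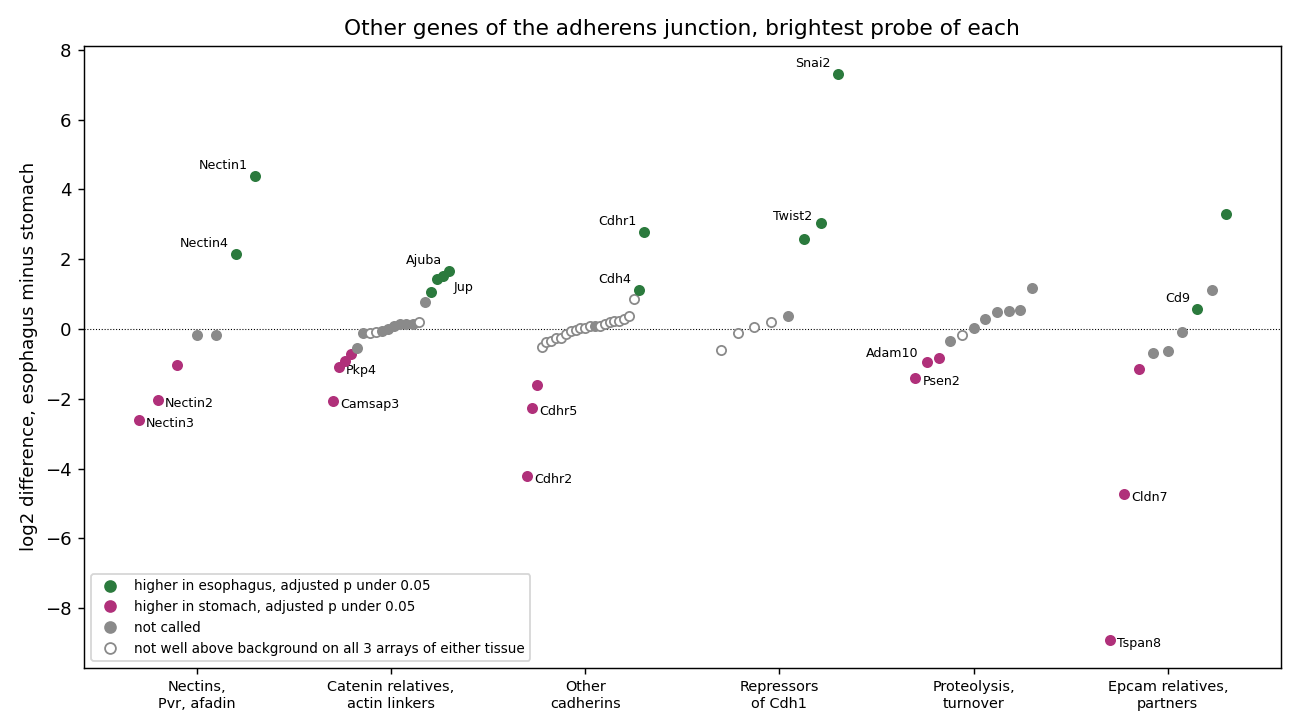
Log2 difference, esophagus minus stomach (vertical axis), of the 80 genes in 6 lists (horizontal axis), with each point the brightest probe of a gene and colors marking the call. *Snai2* (7.30) and *Tspan8* (-8.90) mark the ends of the range.

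Repressors of *Cdh1* are zinc-finger and basic helix-loop-helix factors that bind E-box sequences and are known from epithelial-mesenchymal transition. Of 8 listed, 3 were higher in the esophagus, 0 were called higher in the stomach and 5 were not called (median difference 0.29). *Snai2*, which encodes Slug, read 12.42, 11.79 and 12.21 in the esophagus and 4.63, 5.12 and 4.78 in the stomach. None of its stomach readings was well above background, and by the bound described for *Nectin3* the esophageal level was 157.5-fold higher (limma adjusted p = 6.01e-07). For *Snai2* this bound equals the ratio of the means, and the confidence interval started lower, at 111-fold. By the same bound, the esophageal level of *Twist2* was at least 7.17-fold higher (limma adjusted p = 2.77e-05) and that of *Twist1* at least 5.65-fold (limma adjusted p = 0.000744). Their confidence intervals started lower, at 6.08-fold for *Twist2* and 3.76-fold for *Twist1*. Neither gene had a stomach array well above background. *Snai1*, *Zeb1* and *Zeb2* were not well above background on any array. At the 75th percentile 1 gene of the list was also called higher in the stomach. Beside these, the *Cdh1* difference was -0.65 and was not called, and 0 to 2 of the 11 fibroblast and smooth muscle markers were well above background on an array. Among these was *Acta2*, at 6.69 on the esophageal array of mouse 2 against 4.93 and 4.97 on the other esophageal arrays.

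The promoter of *Epcam* is shown because its window alone, of those at hand, held a match to this kind of site. E-boxes of the form CAGGTG or CACCTG, which are the same site on opposite strands, were searched in the 250 bases before each start in the RefSeq promoter table (GRCm38.p6). The table held 3 of the 7 genes, *Epcam*, *Ctnnb1* and *Ctnnd1*, with 5 starts. It held no row for *Cdh1*, *Cdh3*, *Cdh17* or *Ctnna1*, so the *Cdh1* promoter could not be searched. The *Epcam* window, at chr17:87635729-87635978 on the plus strand, held 2 matches, in capitals below, which start 187 and 19 bases before the transcription start. Neither the 2 *Ctnnb1* nor the 2 *Ctnnd1* windows held a match.

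Epcam promoter: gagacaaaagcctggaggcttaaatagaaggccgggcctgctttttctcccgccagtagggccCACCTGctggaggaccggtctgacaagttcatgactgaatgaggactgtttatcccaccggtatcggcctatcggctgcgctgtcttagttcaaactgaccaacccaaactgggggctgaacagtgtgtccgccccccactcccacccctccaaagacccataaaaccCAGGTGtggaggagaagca

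At least 1 match was present in 17.2% of 32851 promoter windows and at least 2 in 2.06%. A match describes the letters in the window, and no binding was measured.

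Genes for the proteolysis and turnover of cadherins numbered 11, of which 0 were called higher in the esophagus, 3 were higher in the stomach and 8 were not called (median difference 0.02). *Psen2*, a catalytic subunit of γ-secretase, differed by -1.40 (limma adjusted p = 0.0198). *Adam10*, the protease that sheds the E-cadherin ectodomain, read 11.80, 11.96 and 11.67 in the esophagus and 12.74, 12.59 and 12.94 in the stomach, a difference of -0.95 (limma adjusted p = 0.00722). *Dnm2*, which encodes a dynamin of endocytosis, differed by -0.82 (limma adjusted p = 0.0365) and was not called with the mouse as a block (0.0556) or without 4 of the arrays in turn (0.0826 to 0.15). None of the 3 was called at the 75th percentile, where 0 genes of the list were called toward the stomach and 1 toward the esophagus. *Psen2* was also not called without the stomach array of mouse 1 or 2 or the esophageal array of mouse 2.

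Relatives and partners of *Epcam* numbered 9, of which 2 were higher in the esophagus, 3 were higher in the stomach and 4 were not called (median difference -0.64). *Cldn7*, which encodes the claudin that EpCAM binds, read 8.85, 7.32 and 7.21 in the esophagus and 12.40, 12.45 and 12.73 in the stomach, a difference of -4.73 (limma adjusted p = 0.000204). The tetraspanin gene *Tspan8* differed by -8.90 (limma adjusted p = 8.9e-08) and the tetraspanin gene *Cd9* by 0.57 (limma adjusted p = 0.0304). *Cd9* was not called at the 75th percentile (0.0922), with the mouse as a block (0.0799) or without any 1 array (0.0618 to 0.111). *Spint2*, which encodes an inhibitor of membrane serine proteases, was higher in the stomach (-1.16, limma adjusted p = 0.0172) but was not called at the 75th percentile (0.178) or without the stomach array of mouse 1 or the esophageal array of mouse 2.

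The genes whose profile lay nearest to that of a cadherin or *Epcam* were taken by the root mean square difference over the 6 arrays, after each profile was centered on its mean. Nearest to *Cdh3* among 13705 genes were *Fam89a* (0.120), *Stom* (0.124) and *Soga1* (0.137). Nearest to *Cdh1* were *Arfgef1* (0.090), *Cobll1* (0.098) and *Ank3* (0.119). Among the nearest to *Epcam* were *Oma1* (0.084) and *Zfp990* (0.086), and none of these genes named for *Cdh1* or *Epcam* was called between tissues. The nearest to *Cdh17*, whose profile is that of a probe at background, were *5031425E22Rik* (0.118), *Leng1* (0.122) and *Polg2* (0.131).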

How the data were processed

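RNA from 6 organoid cultures was hybridized to 6 single-color arrays. The deposited scanner files hold spot intensity and flags from Feature Extraction (version 11.5.1.1), not normalized between arrays. The authors' deposited log2 values were background corrected and quantile normalized. These were recovered by normexp (offset 15) on median intensities and quantile normalization, with a median absolute difference of 0.00527. The 2029 empty log2 cells were the outlier-marked spots, and none was in a probe of the 7 genes. Between 45.5% and 51.1% of spots per array were well above background, 0 were saturated, and the number of arrays limits the precision.

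Log2 values were averaged over the spots of a probe and fitted with limma (version 3.58.1, R 4.3.3), esophagus minus stomach, with Benjamini-Hochberg adjustment over 55681 probes. The fit was tested on simulated data. The members and the gene and marker lists were chosen with earlier results of these data known. For each list, the 2 called genes with the widest difference in each direction were named, and for each cadherin and *Epcam* the 3 genes with the nearest profile. Of the genes these rules name, 2 are not reported here. The labels give each array a mouse number, and arrays of the 2 tissues with the same number were taken to come from the same animal. Deviations from the tissue means correlated at r = 0.05, 0.03 and 0.0066 within mice and -0.105 to 0.0429 between mice, over 21382 probes. Alternatives rebuilt the log2 values from intensities (normexp offsets of 16 and 50, or the 75th percentile of the processed signal), filtered dim probes, changed the variance model, added the mouse or slide as a block, left out each array, averaged the probes of a gene, or used unadjusted p-values with 1.5-fold. Coordinates are those of the array file (mm9). Exon and UTR annotation and protein sequences were not used here.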

Additional observations from a re-analysis of the deposited data

How the results depend on the processing

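*Cdh3* and *Ctnnd1* probe A_51_P349182 were called in the same direction under each alternative that gave them a value: *Cdh3* at 3.29 to 3.66 (limma adjusted p of 7.89e-07 to 0.000214) and *Ctnnd1* at -2.09 to -1.44 (0.000463 to 0.00854). With the mouse as a replicate block, pairing the arrays by mouse number, the counts of called probes stayed 1 and 1 and the adjusted p-values were 0.000214 for *Cdh3*, 0.0038 for *Ctnnd1* and 0.084 for *Epcam*, and the block changed no call among the 10 probes. With normexp at offset 16, 2 probes were called higher in the stomach, *Epcam* being the second, and with unadjusted p and 1.5-fold there were 3, with *Cdh1*. *Epcam* ranged from -0.82 to -0.51 (adjusted p of 0.0452 to 0.472). Leaving out 1 array at a time kept 1 probe in each direction, while genes of the 6 pathway lists ranged from 9 to 14 toward the esophagus and from 9 to 16 toward the stomach, with 9 toward the stomach without the stomach array of mouse 1. Scaling at the 75th percentile gave 8 toward the stomach and moved the median of all probes from 0.02 to 0.19. The sign turned at 4 uncalled probes, and the cause was not tested. *Ctnnd1* A_55_P1953252 became 0.27 at the 75th percentile and 0.14 with the slide block, and ran from -0.27 to 0.17 over the left-out arrays. *Ctnnd1* A_55_P1953256 became 0.0303 with normexp at offset 16, 0.0343 at offset 50 and 0.11 with the slide block, and ran from -0.41 to 0.11 over the left-out arrays. Over the left-out arrays alone, *Cdh17* A_55_P2070843 ran from -0.0263, without the esophageal array of mouse 2, to 0.52, and *Ctnnb1* from -0.0824, without the esophageal array of mouse 1, to 0.27, while at the 75th percentile they were 0.85 and 0.40. The slide block equals leaving out the esophageal array of mouse 4. The filter on dim probes gave no value for both *Cdh17* probes and *Ctnnd1* A_55_P1953256.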
